A study of Homo sapiens with 6 samples.

Results

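The genes described here build and control the mitotic spindle, hold chromosomes to it and end mitosis. The set holds 47 genes, listed by name, among them the checkpoint kinases BUB1 and TTK, the polo-like kinase PLK1, the Aurora kinases, kinesin motors and condensin subunits. A probe set, the group of short probes by which an Affymetrix array measures a transcript, was taken as belonging to a gene where the array annotation named that gene alone, by its current or an older symbol. All 47 genes were on the array, with 72 of its 22283 probe sets. A further probe set, annotated to CENPA together with another gene, was not used.

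The RNA came from MDA-MB-231 cells, a widely used triple-negative line of mesenchymal-like character derived from human breast cancer. Cells had been electroporated either with siPTHrP, a small interfering RNA against parathyroid hormone-related protein, or with siLuc, a control small interfering RNA against luciferase, and both groups were harvested after 3 days. The experiment had been performed 3 times, so that each group held 3 arrays. Each siPTHrP array was set against the siLuc array assigned to the same experiment. A siLuc array without a number in its labels was assigned by elimination. Another had differing numbers in its title and its description, and the title was followed. Every difference within an experiment, and every count of experiments, rests on this pairing. The transcript that siPTHrP targets was not analysed here, so the knockdown was not checked.

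In dividing cells the transcripts of many of these genes, though not of all, accumulate in G2 and mitosis and are low in G1 and in resting cells. The spindle checkpoint holds back the anaphase-promoting complex until every kinetochore is attached to microtubules. CDC20 then activates that complex, separase cuts cohesin, and the central spindle directs the division of the cell body. Many genes of this class carry 2 promoter elements, CCAAT boxes, bound by the factor NF-Y, and the cell cycle genes homology region or CHR, which is bound by the DREAM complex in resting cells and by B-MYB and FOXM1 complexes in G2.

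Each array gave a signal per probe set, and 13329 probe sets with a mean log2(signal + 16) at or above the 40th percentile were tested. Of the 72 probe sets, 66 were among them, and these covered 46 of the 47 genes, all but KIF23. The siLuc array of experiment 1 stood apart: its Spearman correlation with the others across probe sets was 0.716 to 0.725, whereas the other 5 arrays correlated at 0.882 to 0.960. Every value that includes experiment 1 rests partly on it. The hybridisation controls of that array had a geometric mean signal of 273100, against 10840 to 41430 on the others. The median signal over all probe sets was 887, 652 and 659 on the siLuc arrays of experiments 1, 2 and 3. On the siPTHrP arrays it was 577, 559 and 593. Among markers of the cell line, all 7 mesenchymal-like genes searched had a tested probe set, with vimentin (VIM) between 96463 and 154350 on the 6 arrays. Of 8 luminal genes 6 had a tested probe set, namely ESR1, GATA3, TFF1, ERBB3, KRT19 and FOXA1, with KRT19 between 618 and 1713. PGR and CDH1, encoding E-cadherin, had none, with CDH1 signals between 10 and 505. A tested probe set does not by itself show expression. The tested ESR1 probe sets had signals of 154 to 1720 (215551_at) and 198 to 1353 (215552_s_at), each highest on the siLuc array of experiment 1. Other ESR1 probe sets were not tested. Of 4 leukocyte genes on the array, 1 had a tested probe set. The median log2 fold change of the mesenchymal-like list was 0.05, and that of the luminal list was -0.32, or -0.11 without experiment 1.

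Most of the mitotic probe sets gave a higher signal with siPTHrP, by a moderate amount. Of the 66 tested, 55 had a log2 fold change above 0 (siPTHrP over siLuc, experiment as a block) and 11 below, which is 83.3% above 0, against 52.5% of all 13329. Their median log2 fold change was 0.50, or 1.41-fold, with quartiles of 0.14 and 0.79, and the median of all tested probe sets was 0.03. The median was 0.56, 0.42 and 0.39 in experiments 1, 2 and 3, where that of all probe sets was 0.08, -0.04 and -0.02. In experiments 1, 2 and 3, 48, 54 and 54 of the 66 lay above 0, against 7112, 6261 and 6482 of all 13329. These arrays measured bulk RNA, so a larger share of cells in mitosis and more transcript per cell cannot be told apart.

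No single gene passed the test. With limma and Benjamini-Hochberg adjustment over all 13329 probe sets, 0 of the 66 had an adjusted p under 0.05, as had 0 of all tested (0.0%), and the lowest adjusted p among the 66 was 0.290. Unadjusted p-values under 0.05 were reached by 22 with a higher and 1 with a lower signal, or 33.3% and 1.52% of the 66, against 6.77% and 5.36% of all probe sets. The 22 belonged to 18 genes, and their adjusted p-values lay between 0.290 and 0.408. Leaving out an experiment changed the count of adjusted calls: 33, 47 and 215 of all probe sets passed without experiments 1, 2 and 3, and 0, 0 and 3 of the mitotic ones. Each of these fits had 1 residual degree of freedom, against 2 with all experiments. The 3 mitotic ones were PRC1, TOP2A (201291_s_at) and MKI67 (212020_s_at). Their log2 differences in experiment 1, which holds the siLuc array that stood apart, were 3.33, 1.79 and 2.71. With array weights, which gave experiment 1 a weight of 0.386 against 2.23 and 1.16 for experiments 2 and 3, 6 mitotic probe sets passed among 177 in all.

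**Figure D1:**
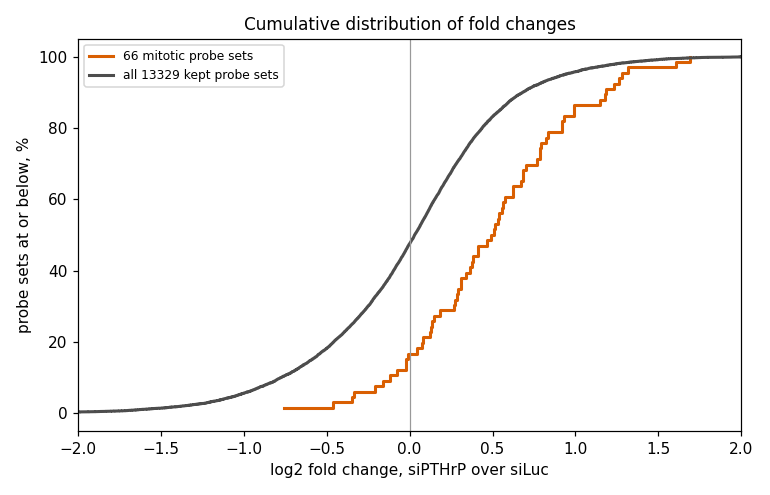
Cumulative share of probe sets (vertical axis, percent) at or below each log2 fold change of siPTHrP over siLuc (horizontal axis), for the 66 tested mitotic probe sets and for all 13329 tested probe sets. The mitotic curve lies to the right, crossing its middle at 0.50, where that of all probe sets crosses at 0.03.

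The direction was often shared between experiments. All 3 experiments gave a higher siPTHrP signal for 35 of the 66, or 53.0%, against 19.1% of all probe sets, and a lower one for 2, or 3.03%, against 19.0%. In experiments 2 and 3 alone, which do not hold the siLuc array that stood apart, 45 of the 66 were higher in both, or 68.2%, against 27.9%, and 3 were lower in both, or 4.55%, against 32.2%. On 13 of the 66, or 19.7%, all 3 siPTHrP arrays lay above all 3 siLuc arrays, against 8.94% of all probe sets, and on 1 they lay below, or 1.52%, against 9.69%. The geometric mean signal of the 66 was 2564, 2661 and 1934 on the siPTHrP arrays of experiments 1, 2 and 3, and 1694, 1995 and 1389 on the siLuc arrays. The siPTHrP array was the higher one within each experiment, although that of experiment 3 lay below the siLuc array of experiment 2. The same mean over all tested probe sets stayed between 1580 and 1610 on the siPTHrP arrays and between 1533 and 1653 on the siLuc arrays.

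**Figure D2:**
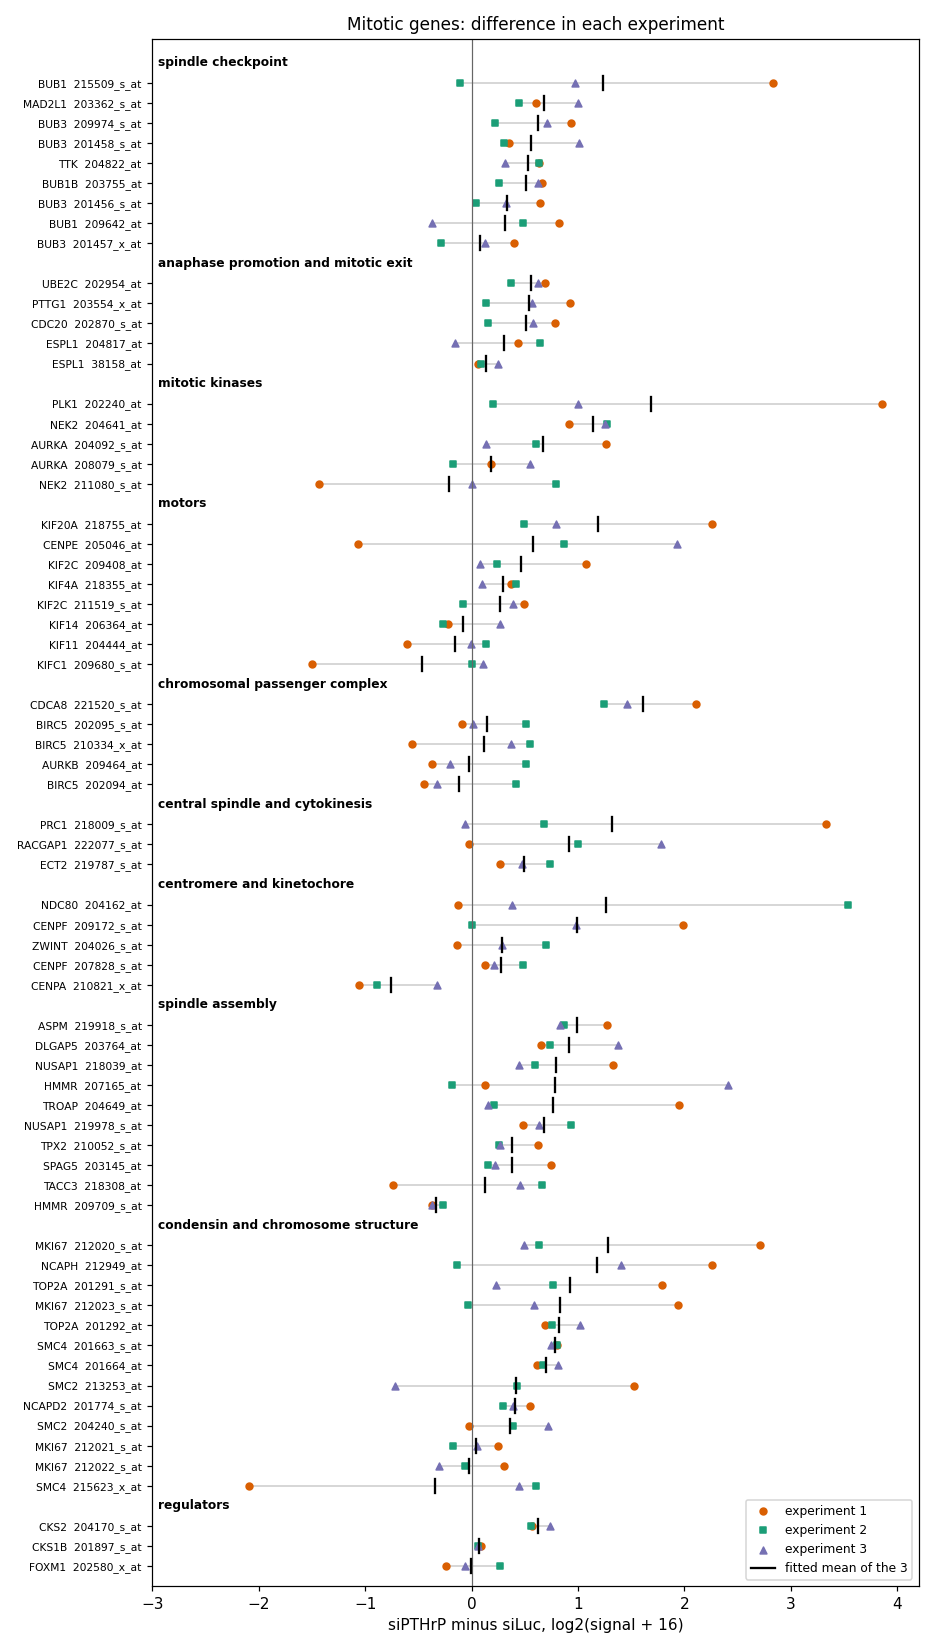
Log2 difference of siPTHrP minus siLuc (horizontal axis) for each of the 66 tested mitotic probe sets (rows, by function), in experiments 1, 2 and 3 (symbols) and as the fitted mean of the 3 (black bar). Of the bars, 55 lie to the right of 0, and the widest spreads are those of NDC80, where experiment 2 is far above the others, and of PLK1 and PRC1, where experiment 1 is.

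The median log2 fold change was above 0 for each of the 10 functions, but the order of the functions changed with the experiments used. With all 3 experiments it was 0.92 for the central spindle genes (3 probe sets), 0.73 for spindle assembly (10), 0.70 for condensin and chromosome structure (13) and 0.67 for the kinases PLK1, AURKA and NEK2 (5). It was 0.53 for the spindle checkpoint (9), 0.51 for anaphase promotion and mitotic exit (5), 0.28 for motors (8) and for centromere and kinetochore genes (5), 0.12 for the chromosomal passenger complex (5) and 0.07 for the regulators FOXM1, CKS1B and CKS2 (3). Leaving out each experiment in turn, the central spindle median ranged from 0.503 to 0.874 and that of the kinases from 0.398 to 0.935. The motor median ranged from 0.054, without experiment 3, to 0.332, and the centromere and kinetochore median from 0.101, without experiment 2, to 0.421. The passenger complex median ranged from -0.095, without experiment 2, to 0.264. The spindle checkpoint (0.44 to 0.641), spindle assembly (0.54 to 0.722) and condensin (0.525 to 0.723) moved less. No test was made between these functions, and several rest on few probe sets.

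**Figure D3:**
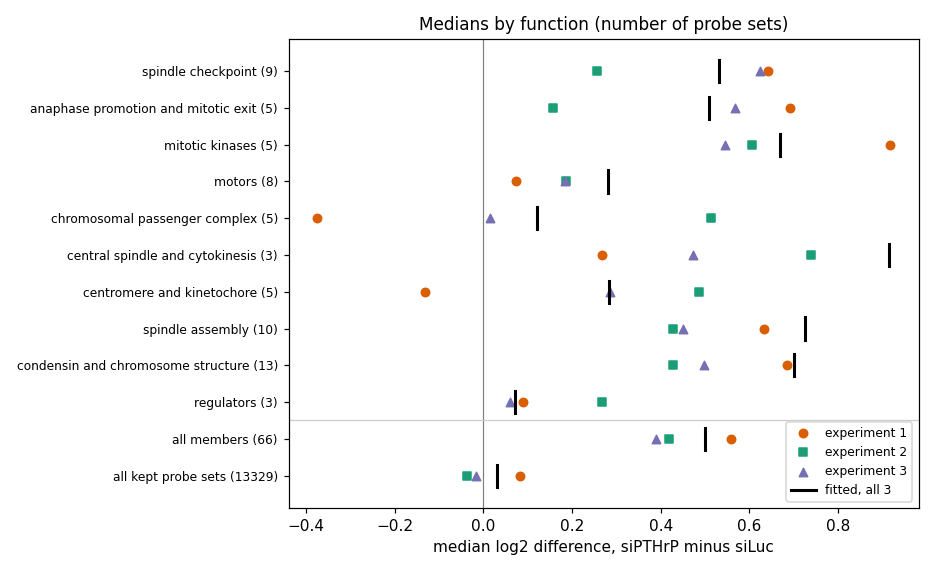
Median log2 difference of siPTHrP minus siLuc (horizontal axis) of each functional class of mitotic genes (rows, number of tested probe sets in brackets), in each experiment (symbols) and in the fit of all 3 (black bar). All 3 experiments lie above 0 for every class except the passenger complex and the centromere and kinetochore class, whose experiment 1 medians are -0.38 and -0.13.

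Promoter letters of the mitotic genes are shown because most members lay on the same side of 0 and the class is known for shared elements. RefSeq promoter windows on GRCh38.p14, from 250 bases before to 50 bases after the start site, were at hand for 38 of the 47 genes. The CHR was searched as TTTGAA, its reverse complement TTCAAA, or TTCGAA, which reads alike on both strands, and the CCAAT box as CCAAT or ATTGG. A CHR match was found in 30 of the 38 genes, or 78.9%, against 19.5% of 27305 genes in the same table. A CCAAT match was found in 30 of 38, again 78.9%, against 39.7%, and both in 25, or 65.8%, against 7.85%. A CHR was found in 11 of the 14 genes in the table with an unadjusted p under 0.05 and higher signal, and in 19 of the other 24. A CCAAT box was found in 13 of the 14 and in 17 of the other 24. Of the 5 genes in the table with every probe set below 0, 4 held a CHR and 5 a CCAAT box. These matches describe letters in a window and were not tested against the fold changes.

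The 6 stretches below, each the 160 bases before the start site, were chosen after the values were seen, to set members with differing signals side by side. Capitals mark CHR and CCAAT matches, and in CDCA8 the CHR match shares its last base with an ATTGG. CDCA8 (chr1:37692356-37692515, plus strand), AURKB (chr17:8210226-8210385, minus strand), CENPA (chr2:26785896-26786055, plus strand), PLK1 (chr16:23678729-23678888, plus strand), CKS2 (chr9:89311035-89311194, plus strand) and CKS1B (chr1:154974521-154974680, plus strand) are given 5' to 3' on their own strand.
CDCA8: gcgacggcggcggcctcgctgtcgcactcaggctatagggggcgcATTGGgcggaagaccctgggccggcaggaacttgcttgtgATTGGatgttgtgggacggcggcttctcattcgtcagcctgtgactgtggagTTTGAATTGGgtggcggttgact
AURKB: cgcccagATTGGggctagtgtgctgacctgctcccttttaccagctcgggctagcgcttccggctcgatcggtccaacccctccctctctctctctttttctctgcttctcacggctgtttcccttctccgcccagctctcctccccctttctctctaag
CENPA: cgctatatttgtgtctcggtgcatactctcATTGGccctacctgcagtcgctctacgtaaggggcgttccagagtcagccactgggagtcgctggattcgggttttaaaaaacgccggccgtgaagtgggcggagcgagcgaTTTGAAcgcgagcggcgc
PLK1: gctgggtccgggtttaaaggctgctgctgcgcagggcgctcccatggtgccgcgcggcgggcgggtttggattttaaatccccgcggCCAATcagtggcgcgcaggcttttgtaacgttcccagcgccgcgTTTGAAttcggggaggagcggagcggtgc
CKS2: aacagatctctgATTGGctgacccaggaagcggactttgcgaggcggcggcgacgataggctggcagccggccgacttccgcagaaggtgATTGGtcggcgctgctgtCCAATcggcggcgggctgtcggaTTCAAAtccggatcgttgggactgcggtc
CKS1B: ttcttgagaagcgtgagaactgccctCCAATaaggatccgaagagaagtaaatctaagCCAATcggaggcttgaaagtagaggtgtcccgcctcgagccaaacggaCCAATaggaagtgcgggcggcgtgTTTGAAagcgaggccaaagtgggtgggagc
The CHR match begins at -23 in CDCA8, -18 in CENPA, -29 in PLK1 and CKS2 and -30 in CKS1B, counted from the start site. AURKB has none in this stretch.

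The checkpoint kinases and their partners were higher with siPTHrP on all 9 tested probe sets. BUB3, which carries BUB1 and BUBR1 to kinetochores, had 4 of them. On the one with the smallest p (209974_s_at) its signals were 10374, 8808 and 6561 with siPTHrP in experiments 1, 2 and 3, and 5419, 7568 and 3995 with siLuc. Each siPTHrP array was above its own control, but the groups overlapped (log2 fold change 0.62, SE 0.19, limma adjusted p = 0.347). On 201458_s_at BUB3 had 9996, 9652 and 11622 with siPTHrP against 7841, 7809 and 5754 with siLuc, with no overlap (0.56, SE 0.19). The other BUB3 probe sets gave smaller differences, 0.34 on 201456_s_at (0.18 without experiment 1) and 0.08 on 201457_x_at, where siPTHrP signals of 16999, 15950 and 18426 lay within the siLuc range of 12888 to 19425. BUB1B, encoding the checkpoint protein BUBR1, had 2172, 2053 and 1850 with siPTHrP and 1370, 1716 and 1196 with siLuc, again without overlap (0.51, SE 0.28, limma adjusted p = 0.460). MAD2L1, the MAD2 subunit that inhibits CDC20, was higher in 3 of 3 experiments (0.68, SE 0.26), and so was TTK, the kinase MPS1 that starts checkpoint signalling (0.53, SE 0.41). The kinase BUB1 had 2 tested probe sets at 0.31 and 1.23, and each was higher in 2 of 3 experiments. Without experiment 1 these were 0.05 and 0.44. Its 3 untested probe sets had signals between 15 and 347. With no filter on signal they gave -1.20 (215508_at), 0.60 (216275_at) and -1.40 (216277_at). On 216277_at all siPTHrP arrays lay below all siLuc arrays.

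Genes of anaphase promotion and mitotic exit were higher on all 5 tested probe sets. UBE2C, the ubiquitin-conjugating enzyme of the anaphase-promoting complex, was very even among siPTHrP arrays, with 13407, 12994 and 13304 there, against 8297, 10059 and 8607 with siLuc. The groups did not overlap (log2 fold change 0.56, SE 0.16, limma adjusted p = 0.332). PTTG1, the securin that holds separase inactive, had a log2 fold change of 0.54 (SE 0.19), and CDC20 had 0.51 (SE 0.23), each higher in 3 of 3 experiments. Without experiment 1 PTTG1 was at 0.35 and CDC20 at 0.37. ESPL1, the separase itself, differed least: on 38158_at it had 1438, 1378 and 1197 with siPTHrP and 1378, 1292 and 1008 with siLuc (0.13, SE 0.31). Its other probe set gave 0.31 and was lower in experiment 3.

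Among the kinases, NEK2, which separates centrosomes, was higher by a similar amount in each experiment on 1 probe set. On 204641_at its signals were 2100, 2844 and 1299 with siPTHrP and 1105, 1171 and 537 with siLuc, and the log2 differences were 0.92, 1.27 and 1.25 in experiments 1, 2 and 3. The groups did not overlap (1.15, SE 0.31, limma adjusted p = 0.327). Its second probe set, 211080_s_at, had 1005, 1188 and 823 with siPTHrP against 2734, 677 and 823 with siLuc, so that the fitted value was -0.21, and 0.40 without experiment 1. PLK1, the polo-like kinase active from mitotic entry to cytokinesis, had 1508, 1742 and 1007 with siPTHrP and 89, 1509 and 496 with siLuc. Its log2 fold change of 1.69 (SE 0.67) was 0.60 without experiment 1, where the siLuc signal was 89. AURKA, the Aurora kinase of spindle poles, gave 0.67 (SE 0.29) on 204092_s_at, or 0.37 without experiment 1. On 208079_s_at it had 3208, 2725 and 1972 with siPTHrP and 2833, 3073 and 1346 with siLuc, with overlap (0.18, SE 0.25).

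Of 8 tested probe sets of motor genes, 5 were above 0 and 3 below. Without experiment 1, 7 of the 8 were above 0. KIF20A, a kinesin of the central spindle, had 2786, 2747 and 1768 with siPTHrP and 568, 1946 and 1011 with siLuc. It was higher in 3 of 3 experiments (log2 fold change 1.18, SE 0.38, limma adjusted p = 0.355), at 0.65 without experiment 1. KIF2C, which depolymerises microtubules at centromeres, gave 0.46 and 0.27 on its 2 probe sets, or 0.157 and 0.154 without experiment 1, and the chromokinesin KIF4A gave 0.29 (SE 0.28). KIF14, another cytokinesis motor, had 1218, 1251 and 1347 with siPTHrP and 1422, 1513 and 1120 with siLuc, with overlap (-0.08, SE 0.32). The bipolar spindle motor KIF11 gave -0.16 (SE 0.37) and 0.07 without experiment 1. The minus-end motor KIFC1 gave -0.46 (SE 0.33) and 0.05 without experiment 1, where its siLuc signal was 4666 against 2637 and 2355 in the other siLuc arrays. CENPE, a kinetochore motor, was lower in experiment 1 and higher in experiments 2 and 3, by -1.07, 0.87 and 1.93 on the log2 scale.

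KIF23, the motor subunit of centralspindlin, had too low a mean signal to be tested. Its signals were 691, 627 and 448 with siPTHrP and 130, 201 and 17 with siLuc, so that the groups did not overlap. With no filter on signal its log2 fold change was 2.55 (SE 0.79, limma adjusted p = 0.405).

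In the chromosomal passenger complex, which corrects faulty attachments and then moves to the central spindle, only CDCA8 stood apart between the groups. CDCA8, encoding the subunit borealin, had 1955, 2971 and 2190 with siPTHrP and 440, 1241 and 784 with siLuc. Every siPTHrP array exceeded every siLuc array (3.05-fold, log2 fold change 1.61, SE 0.33, limma adjusted p = 0.290), and without experiment 1 the value was 1.36. AURKB, the kinase of the complex, had 2329, 2916 and 2044 with siPTHrP and 3024, 2044 and 2360 with siLuc. These signals overlapped (-0.02, SE 0.26). BIRC5, encoding survivin, had 1556, 1768 and 1174 with siPTHrP against 2129, 1317 and 1471 with siLuc on 202094_at (-0.12, SE 0.31). On 202095_s_at it had 2211, 2771 and 2870 with siPTHrP against 2357, 1935 and 2843 with siLuc (0.15, SE 0.24). On 210334_x_at BIRC5 had 1915, 2480 and 2364 with siPTHrP against 2839, 1686 and 1820 with siLuc (0.12, SE 0.29). Signals of AURKB and BIRC5 thus overlapped between the groups on all 4 probe sets, each lower in experiment 1 and higher in experiment 2. The difference between CDCA8 and its partners was not tested.

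**Figure D4:**
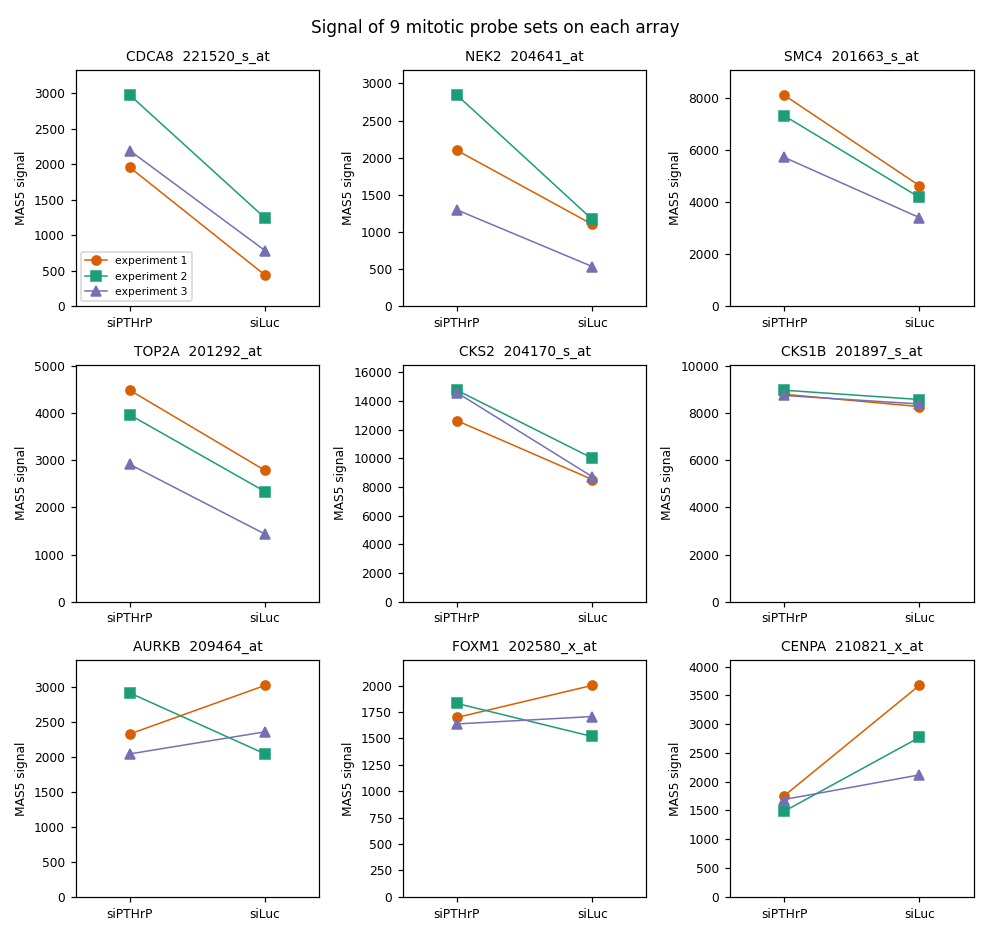
MAS5 signal (vertical axis, linear from 0) of 9 mitotic probe sets on the siPTHrP array (left) and the siLuc array (right) of each experiment, joined by a line. CDCA8, NEK2, SMC4, TOP2A and CKS2 slope down to siLuc in all 3 experiments, CKS1B does so slightly, AURKB and FOXM1 cross, and CENPA slopes up.

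The central spindle genes were higher on all 3 probe sets, with wide spreads. RACGAP1, the GTPase-activating partner of KIF23, had 1945, 3090 and 1631 with siPTHrP and 1984, 1536 and 465 with siLuc. It was level in experiment 1 and higher in experiments 2 and 3 (log2 fold change 0.92, SE 0.37, and 1.39 without experiment 1). PRC1, which bundles antiparallel microtubules, gave 3.33, 0.68 and -0.06 in experiments 1, 2 and 3, so that its fitted 1.32 (SE 0.55) became 0.31 without experiment 1. ECT2, the exchange factor that activates RhoA, had 1876, 2237 and 1031 with siPTHrP against 1555, 1335 and 739 with siLuc, higher in 3 of 3 experiments but with overlap (0.49, SE 0.31).

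CENPA, the histone H3 variant that marks centromeres, was lower with siPTHrP in all 3 experiments. Its signals were 1753, 1485 and 1691 with siPTHrP and 3675, 2770 and 2118 with siLuc, with every siPTHrP array below every siLuc array. The log2 fold change was -0.76 (SE 0.26, limma adjusted p = 0.366), and -0.61 without experiment 1. CENPA, like PTTG1 and FOXM1, was measured by a single probe set of the _x_at kind, whose probes can also match other transcripts. CENPF, a large kinetochore protein, had 2846, 3504 and 2014 with siPTHrP and 2609, 2496 and 1736 with siLuc on 207828_s_at, higher in 3 of 3 experiments with overlap (0.27, SE 0.23). Its second tested probe set gave 0.99 (SE 0.70), or 0.49 without experiment 1, and an untested one had signals of 14 to 21 with siPTHrP and 38 to 362 with siLuc. NDC80, which binds microtubules at the kinetochore, gave -0.13, 3.54 and 0.38 in experiments 1, 2 and 3, the middle value resting on a siLuc signal of 84. ZWINT, a kinetochore linker, gave 0.28 (SE 0.21), or 0.49 without experiment 1.

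Spindle assembly genes were higher on 9 of 10 probe sets. NUSAP1, which bundles spindle microtubules near chromosomes, had 6051, 6465 and 5268 with siPTHrP and 2400, 4275 and 3866 with siLuc on 218039_at (log2 fold change 0.79, SE 0.22, limma adjusted p = 0.328). On 219978_s_at it had 3585, 3622 and 3147 with siPTHrP against 2567, 1889 and 2020 with siLuc (0.68, SE 0.23). Neither probe set overlapped between the groups, and without experiment 1 they gave 0.52 and 0.78. DLGAP5, encoding the spindle protein HURP, had 3084, 2875 and 2267 with siPTHrP and 1963, 1715 and 866 with siLuc, again without overlap (0.92, SE 0.27, limma adjusted p = 0.332). TPX2, which activates AURKA on the spindle, had 7799, 6432 and 5619 with siPTHrP against 5069, 5367 and 4664 with siLuc, a smaller step that also left no overlap (0.38, SE 0.18). ASPM, a spindle pole protein, was higher in 3 of 3 experiments at 0.99 (SE 0.32). SPAG5 and TROAP, 2 further spindle-associated proteins, were at 0.38 and 0.77, or 0.19 and 0.18 without experiment 1. TACC3, which stabilises kinetochore fibres, had 2043, 2101 and 1814 with siPTHrP and 3423, 1320 and 1317 with siLuc. It was lower in experiment 1 and higher in experiments 2 and 3 (0.13, SE 0.33). HMMR, a hyaluronan receptor that also acts at the spindle, disagreed between its probe sets. On 207165_at it had 1002, 914 and 897 with siPTHrP against 914, 1040 and 156 with siLuc (0.78, SE 0.58), and on 209709_s_at 1194, 1122 and 786 with siPTHrP against 1545, 1352 and 1023 with siLuc, lower in 3 of 3 experiments (-0.34, SE 0.33).

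Among genes of chromosome structure, SMC4, the ATPase core subunit shared by both condensins, was higher in all 3 experiments on 2 of its 3 probe sets. On 201663_s_at its signals were 8098, 7312 and 5715 with siPTHrP and 4627, 4179 and 3404 with siLuc, and the log2 differences were 0.81, 0.81 and 0.75 in experiments 1, 2 and 3. The groups did not overlap (0.79, SE 0.18, limma adjusted p = 0.321). On 201664_at SMC4 had 7608, 7955 and 4478 with siPTHrP against 4952, 5000 and 2536 with siLuc (0.70, SE 0.18), with overlap between the groups but the same direction in 3 of 3 experiments. On 215623_x_at it had 353, 431 and 317 with siPTHrP against 1559, 277 and 229 with siLuc, lower in experiment 1 and higher in experiments 2 and 3 (-0.35, SE 0.74). TOP2A, the topoisomerase that untangles sister chromatids, had 4490, 3967 and 2915 with siPTHrP and 2785, 2336 and 1433 with siLuc on 201292_at. No overlap was seen there (0.82, SE 0.22, limma adjusted p = 0.324), and its other probe set gave 0.93 (SE 0.33), or 0.50 without experiment 1. The partner ATPase SMC2 gave 0.36 and 0.41 on 2 probe sets, each higher in 2 of 3 experiments, or 0.55 and -0.14 without experiment 1. NCAPD2, a condensin I subunit, gave 0.41 (SE 0.25) and was higher in 3 of 3. NCAPH, the kleisin of condensin I, gave 2.25, -0.13 and 1.41 in experiments 1, 2 and 3.

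MKI67, encoding the proliferation marker Ki-67 that coats mitotic chromosomes, did not give a single answer over its 4 probe sets. On 212020_s_at it had 1912, 3278 and 1471 with siPTHrP and 278, 2109 and 1038 with siLuc (log2 fold change 1.28, SE 0.45), and the value was 0.56 without experiment 1. On 212023_s_at it had 1424, 1917 and 1463 with siPTHrP against 359, 1963 and 970 with siLuc (0.83, SE 0.42). The other probe sets gave values near 0: 2661, 2238 and 1951 with siPTHrP against 2241, 2523 and 1881 with siLuc on 212021_s_at (0.04, SE 0.24). On 212022_s_at the signals were 2758, 2160 and 1344 with siPTHrP against 2226, 2262 and 1662 with siLuc (-0.02, SE 0.26). In experiments 2 and 3 alone the 4 values were 0.56, 0.28, -0.06 and -0.19.

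The CDK-binding proteins CKS1B and CKS2, small paralogs that both carry a CHR and CCAAT boxes in the promoter stretches printed above, lay at unequal distances from 0, a difference that was not tested. CKS2 had 12625, 14751 and 14583 with siPTHrP and 8521, 10013 and 8716 with siLuc, a gap wider than either group (1.54-fold, log2 fold change 0.62, SE 0.16, limma adjusted p = 0.324). CKS1B had 8810, 8981 and 8757 with siPTHrP and 8284, 8586 and 8396 with siLuc, also without overlap but by a small step (1.05-fold, 0.07, SE 0.16, limma adjusted p = 0.865). The direction of CKS1B was not stable to scaling, at -0.09 with quantile normalization. FOXM1, the forkhead factor that activates many of these genes in G2, had 1698, 1831 and 1637 with siPTHrP and 2002, 1518 and 1707 with siLuc. Its groups overlapped (-0.01, SE 0.27, limma adjusted p = 0.991), with an estimate of 0.32 when each array was centred on its median.

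Where a gene had several tested probe sets, they usually shared a sign. This held for 9 of 14 such genes, while NEK2, HMMR, BIRC5, SMC4 and MKI67 had both signs. Over all 46 genes with a tested probe set, 35 had every probe set above 0 and 6 had every probe set below 0: KIF11, KIF14, KIFC1, AURKB, CENPA and FOXM1. Of these 6, CENPA alone was lower in all 3 experiments. In 8 genes every tested probe set had all siPTHrP arrays above all siLuc arrays, namely BUB1B, UBE2C, CDCA8, TPX2, NUSAP1, DLGAP5, CKS1B and CKS2. In 1 gene, CENPA, they lay below. By probe set, 19.7% of the mitotic ones were apart and higher, against 8.94% of all tested probe sets. A log2 fold change above 0 was seen in 83.3%, against 52.5%. No share over all genes was computed.

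Lists of other genes of the same machinery had medians above 0, most of them smaller without experiment 1. Shares above 0 are to be read against the 52.5% of all tested probe sets, and shares higher at an unadjusted p under 0.05 against 6.77%. Other kinetochore and centromere genes had 22 of 26 probe sets above 0 (84.6%) and a median log2 fold change of 0.36, or 0.14 without experiment 1. Without experiment 1, 17 of these 26 were above 0. The mitotic set then had 57 of 64 above 0, and all probe sets tested both ways had 6169 of 12914. Of the 26, 2 were higher at an unadjusted p under 0.05 (7.69%), close to the share of all probe sets. These were ZWILCH, of the complex that brings dynein to kinetochores, at 0.76 (0.86 without experiment 1) and 219555_s_at of CENPN, which binds CENPA nucleosomes, at 0.72 (0.33 without experiment 1). The other CENPN probe set was at 1.55, or 0.73 without experiment 1. CENPO, another inner kinetochore protein, was lower at -1.08 (-0.59 without experiment 1).

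Cohesin and its regulators had 15 of 22 above 0 (68.2%), or 16 of 22 without experiment 1. Their median was 0.40, or 0.22 without experiment 1, and 3 were higher at an unadjusted p under 0.05 (13.6%). Each of these was 1 of several probe sets of its gene. The cohesin subunit STAG2 had 0.93 (SE 0.25) on 209022_at, or 1.11 without experiment 1. Its other probe sets had 1.37 (0.10 without experiment 1) and 0.15. The core subunit SMC3 had 0.56 on 209259_s_at (0.47 without experiment 1), and 0.42 and 0.78 on the others (0.41 and 0.29 without experiment 1). The cohesin loader NIPBL had 1.18 on 212469_at (0.68 without experiment 1), and -0.26, 0.18 and 0.47 on the others.

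The remaining condensin subunits had 5 of 8 above 0 (62.5%), or 5 of 7 tested without experiment 1. Their median was 0.21, or 0.31 without experiment 1, with NCAPG2 of condensin II at 1.01 (SE 0.31). Subunits and partners of the anaphase-promoting complex had 16 of 22 above 0 (72.7%), or 14 of 22 without experiment 1. Their median was 0.23, or 0.11 without experiment 1. There 1 was higher at an unadjusted p under 0.05 (4.55%), the subunit gene ANAPC15 at 1.36, or 0.38 without experiment 1. Other mitotic motors and spindle genes had 18 of 27 above 0 (66.7%) and a median of 0.24, or 0.10 without experiment 1. At an unadjusted p under 0.05, 2 were higher (7.41%) and 2 lower. Among them were TUBG1, encoding gamma-tubulin, at 1.48 (SE 0.41, and 0.96 without experiment 1), and the kinesins KIFC3 at -0.99 (SE 0.26, and -0.66 without experiment 1) and KIF3B at -0.82 (SE 0.34). None of these passed adjustment.

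Subunits of the DREAM and MuvB complexes, which regulate CHR-bearing genes, had 5 of 11 above 0 (45.5%), or 3 of 11 without experiment 1. Their median was -0.001 (-0.06 without experiment 1), with 0 at an unadjusted p under 0.05. Probe sets of the same gene disagreed here. The repressor E2F4 was at -0.41 (SE 0.19) and 0.17 on its 2 probe sets, and the pocket protein RBL2 at 1.08 (SE 0.64, and 0.25 without experiment 1) and -0.06. The dimerisation partner TFDP2 was at -1.02 (SE 0.48) and -0.43. Kinesins of cargo transport had 8 of 12 above 0 (66.7%) and a median of 0.12, or -0.01 without experiment 1. Of these 12, 1 was higher at an unadjusted p under 0.05 (8.33%), KIFAP3 at 1.35 (SE 0.52, and 0.85 without experiment 1). The list of other mitotic motors and spindle genes had the same share above 0, but it counts KIF3B and KIFC3, both below 0. These kinesins also carry cargo, so the equal share depends on where they were placed. It also depends on experiment 1. Without that experiment, 5 of 12 transport probe sets were above 0, against 19 of 26 of the other list. The median of the 64 mitotic probe sets tested without experiment 1 was 0.39. No difference between lists was tested.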

How the data were processed

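Total RNA of 6 MDA-MB-231 samples had been hybridised to Affymetrix human expression arrays, 1 array per RNA, per the labels. The deposited values were linear signal intensities from MAS5, per the submitters' processing notes; no MAS5 version is stated there or in the labels. The mean signal after trimming 2% at each end was 1500.4 to 1500.6 on every array, and the deposited scaling was kept. Decimals occurred in 90.1% of values on the siLuc array of experiment 1 and on no other array. Its labels give no number, so it was placed in experiment 1 by elimination; the array titled siLuc 3 is described as 2, and the title was followed.

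In R 4.3.3 with limma 3.58.1, log2(intensity + 16) was fitted with siRNA and experiment as terms, eBayes with an intensity trend and Benjamini-Hochberg adjustment, after leaving out 68 controls and probe sets below the 40th percentile of the mean (a signal of about 376). Offset and MAS5 noise make fold changes of dim probe sets uncertain. The design text pairs RNAs by experiment. Deviations of paired arrays correlated at -0.012, 0.157 and 0.157 in experiments 1, 2 and 3. Those of arrays from different experiments correlated at -0.206 to 0.132, the highest being siPTHrP 1 with siLuc 2. The fit was tested on simulated data. Names came from the array annotation, updated to RefSeq symbols for 19059 of 19071 probe sets with 1 gene. Members, lists and the naming rule were chosen with earlier results of these data known. By that rule, signals of every array are given for the probe sets with the smallest p and the smallest absolute fold change of each function, for genes with probe sets of both signs and for genes whose groups did not overlap; other genes are named by up to 3 smallest p-values per list. A count of array replicates of this size limits precision.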

Additional observations from a re-analysis of the deposited data

How the results depend on the processing

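The median of the mitotic probe sets stayed above 0 in all 15 alternatives (0.385 to 0.827), and 0.308 to 0.664 above that of all probe sets. The share at an unadjusted p under 0.05 and higher was 18.2% to 48.5%, against 3.45% to 14.5% of all probe sets. Centring each array on its median moved the median of all probe sets to 0.356 and that of the mitotic ones to 0.827. The mitotic median was 0.398 with a filter at the 60th percentile and 0.397 with array weights. The count higher at an unadjusted p was 14 with no replicate block, 12 with no intensity trend and 8 of 27 without _x_at and _s_at probe sets, against 22. The count lower was 0 with median centring and without _x_at and _s_at probe sets, and 2 with no filter. Adjusted calls over all probe sets were 177 with array weights, 6 of them mitotic, and 5 without _x_at and _s_at probe sets, 0 of them mitotic. With no replicate block 0 probe sets passed, as in the paired fit. Leaving out each experiment gave 33 to 215 adjusted calls, 0 to 3 of them mitotic, 17 to 21 higher and 0 to 2 lower at an unadjusted p, and medians of 0.385 to 0.479. Centring over tested probe sets only was chosen after seeing the data.

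Of 935 values of single probe sets under alternatives, 874 kept direction and side of the threshold, 9 passed it and 52, of 18 probe sets, changed sign; the cause was not tested. Without _x_at and _s_at probe sets the log2 fold changes were the median of the chromosomal passenger complex -0.07. With quantile normalization the log2 fold changes were BUB3 (201457_x_at) -0.097, KIF14 0.063, FOXM1 0.02 and CKS1B -0.09. With array weights the log2 fold changes were BUB3 (201457_x_at) -0.089, NEK2 (211080_s_at) 0.325, KIF11 0.016, AURKB 0.199, BIRC5 (202094_at) 0.104, SMC4 (215623_x_at) 0.282, MKI67 (212021_s_at) -0.06 and FOXM1 0.116. With no replicate block and without the siLuc array of experiment 1 the log2 fold changes were BUB3 (201457_x_at) -0.084, NEK2 (211080_s_at) 0.406, KIF11 0.226, AURKB 0.129, BIRC5 (202094_at) 0.086, SMC2 (213253_at) -0.017, MKI67 (212022_s_at) 0.045 and FOXM1 0.095. With median centring the log2 fold changes were NEK2 (211080_s_at) 0.115, KIF11 0.166, KIF14 0.25, AURKB 0.302, BIRC5 (202094_at) 0.21, MKI67 (212022_s_at) 0.306 and FOXM1 0.317. With centring over tested probe sets the log2 fold changes were KIF14 0.005, AURKB 0.058, MKI67 (212022_s_at) 0.061 and FOXM1 0.072. Leaving out each experiment in turn, the ranges were the median of the chromosomal passenger complex -0.095 to 0.264, BUB3 (201457_x_at) -0.08 to 0.261, NEK2 (211080_s_at) -0.715 to 0.398, KIF11 -0.306 to 0.066, KIF14 -0.246 to 0.021, KIFC1 -0.749 to 0.053, CENPE -0.099 to 1.398, AURKB -0.29 to 0.152, BIRC5 (202094_at) -0.385 to 0.049, BIRC5 (202095_s_at) -0.039 to 0.264, BIRC5 (210334_x_at) -0.095 to 0.463, HMMR (207165_at) -0.027 to 1.269, TACC3 -0.141 to 0.561, SMC2 (213253_at) -0.145 to 0.979, MKI67 (212021_s_at) -0.06 to 0.149, MKI67 (212022_s_at) -0.185 to 0.121 and FOXM1 -0.148 to 0.104.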
